A study of Mus musculus with 3 samples.

Results

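The intracellular fatty acid binding proteins are small cytosolic carriers of long-chain fatty acids and related lipids, and their 10 genes were followed here in sorted cells of the mouse superior cervical ganglion. The genes were Fabp1, Fabp2, Fabp3, Fabp4, Fabp5, Fabp6, Fabp7, Fabp9, Fabp12 and Pmp2, taken by name from the 52550 genes of the deposited table, and all 10 were found, each on 1 row. The family was selected on its TPM in these same libraries, above all the very high level of Fabp7, so its levels are a description and were not tested. The cells came from male mice of the genotype LepRCRE::Ai32 aged 10 weeks, which carry Cre recombinase at the leptin receptor gene and a Cre-dependent reporter. Live reporter-positive cells were collected by flow sorting from this ganglion, a sympathetic one at the top of the neck, and Smart-Seq2 libraries of full-length cDNA were made. The labels give 3 biological replicates of 1 group, called LepR+, with no second genotype, treatment or negative sort. A Cre reporter also keeps its label in the descendants of cells that once expressed the driver gene. How many cells or mice went into each library is not known here.

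Each fatty acid binding protein folds into a barrel that holds its ligand inside and carries it through the cytosol to membranes, enzymes or nuclear receptors. The members are known for their tissues: Fabp7 for radial glia, astrocytes, satellite glia and immature Schwann cells, Pmp2 for myelin, Fabp4 for adipocytes and capillary endothelium, Fabp5 for epidermis and many other cells, Fabp3 for heart and skeletal muscle, and Fabp1, Fabp2 and Fabp6 for liver and gut. Fabp9 and Fabp12 are known mainly from testis.

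The values are TPM, which scale reads by gene length and by the library's total, so levels of different genes can be set side by side. Whole reads could be recovered behind every value, in all 8239045, 8038891 and 7721995 reads for replicates 1, 2 and 3. Mitochondrially encoded genes held from 19.88% to 21.12% of TPM. Lepr, the gene that drives the reporter, had 363, 32.1 and 54.0 TPM, so it was read in every library and was highest in replicate 1.

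All 10 members have 4 coding exons in the GENCODE M21 annotation of GRCm38. The second coding exon is 173 bases long in every member but Fabp6, where it is 176. In all, 6 of the genes lie on chromosome 3, and 5 of these, Fabp5, Pmp2, Fabp9, Fabp4 and Fabp12, lie within 289 kb (10012548 to 10301183). Fabp7 lies alone on chromosome 10 (57784881 to 57788450, forward strand). Its 4 coding exons of 73, 173, 102 and 48 bases have the same lengths as those of Pmp2, Fabp4, Fabp9 and Fabp12.

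The starts of the coding sequences show how far the members can be told apart by their reads. The first 93 coding bases of Fabp7 are set against the same stretch of its nearest relative Fabp3, of Pmp2, and of the other 2 members with many reads. Capitals mark a base identical to Fabp7 at the same place, counted from the first base of the start codon. Fabp5 is given from its base 7, because its first coding exon is 79 bases long, longer than that of Fabp7 by 6.
Fabp7: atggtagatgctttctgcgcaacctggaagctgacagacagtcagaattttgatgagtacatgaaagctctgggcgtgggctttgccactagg
Fabp3: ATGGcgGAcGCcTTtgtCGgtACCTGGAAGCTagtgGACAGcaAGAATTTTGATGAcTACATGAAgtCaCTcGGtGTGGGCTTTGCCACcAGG
Pmp2: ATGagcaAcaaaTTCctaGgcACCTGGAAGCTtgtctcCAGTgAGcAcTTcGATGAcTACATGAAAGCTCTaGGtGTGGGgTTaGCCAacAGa
Fabp4: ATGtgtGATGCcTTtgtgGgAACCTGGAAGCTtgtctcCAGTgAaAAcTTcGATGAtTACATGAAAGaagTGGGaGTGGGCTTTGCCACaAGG
Fabp5: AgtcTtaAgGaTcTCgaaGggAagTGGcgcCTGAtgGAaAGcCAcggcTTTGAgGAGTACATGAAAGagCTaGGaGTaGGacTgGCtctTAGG

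In that stretch 71 bases of Fabp3, 68 of Fabp4, 62 of Pmp2 and 55 of Fabp5 match Fabp7. Over whole coding sequences, Fabp7 was most like Fabp3, at 66.4% identical bases of the alignment, and least like Fabp1. The 45 pairs of members ranged from 48.1% to 71.2%, the top value being that of Fabp4 and Pmp2. The longest run of bases shared by any pair was 23 bases, again in Fabp4 and Pmp2. The longest run of Fabp7 with another member was 20 bases, with Fabp3, and it reads ttcaagaacacagagatcaa. How long the reads were is not known here.

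**Figure D1:**
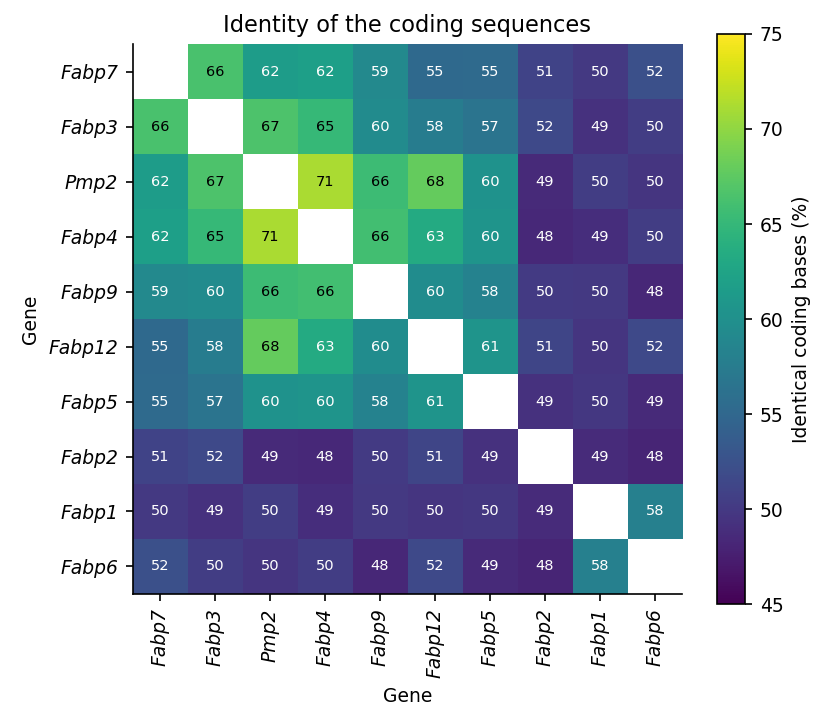
Identity of the coding sequences of the 10 members, as percent of alignment columns with the same base, for each pair (both axes list the genes, colour and number give the percent). The highest value is that of Fabp4 and Pmp2, and Fabp1, Fabp2 and Fabp6 lie farthest from Fabp7, Fabp2 at 51.0% and Fabp6 at 52.4%.

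One member held nearly all of the family's RNA. Fabp7 had 16339, 13137 and 13012 TPM in replicates 1, 2 and 3, from 52184, 42026 and 38927 reads. Its mean was 14163 ± 1886 TPM (SD, n = 3), and its highest library exceeded its lowest by 1.26 times, the narrowest relative spread of the 4 members with a read in every library. Leaving out the mitochondrially encoded genes, Fabp7 ranked first of all genes by deposited TPM in each of the 3 libraries. The next gene was Apoe, the lipid carrier of glia and macrophages, in replicates 1 and 2, with Fabp7 1.72 and 1.63 times higher. In replicate 3 it was Gm10800, a predicted gene, with Fabp7 1.12 times higher. Among all genes Fabp7 ranked 4, 5 and 5, below 3, 4 and 4 mitochondrially encoded genes. These ranks rest on scaling by gene length. In reads, which are not so scaled, Apoe had 52045, 44110 and 47147, more than Fabp7 in replicates 2 and 3.

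Fabp5 and Fabp4 followed far below. Fabp5, a carrier found in many tissues, had 50.4, 60.8 and 129 TPM from 459, 555 and 1104 reads, a mean of 80.2 ± 42.9 TPM (SD, n = 3). Fabp4, the carrier of adipocytes and capillaries, had 22.3, 27.3 and 43.9 TPM from 256, 313 and 471 reads, a mean of 31.2 ± 11.3 TPM (SD, n = 3). Both were highest in replicate 3, where Fabp7 was nearly the same as in replicate 2 (13012 and 13137 TPM). The ranges of Fabp5 and Fabp4 did not overlap in deposited TPM. Within a library Fabp7 stood 324, 216 and 101 times above Fabp5 and 731, 482 and 297 times above Fabp4. Fabp5 was 2.26, 2.23 and 2.95 times above Fabp4.

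**Figure D2:**
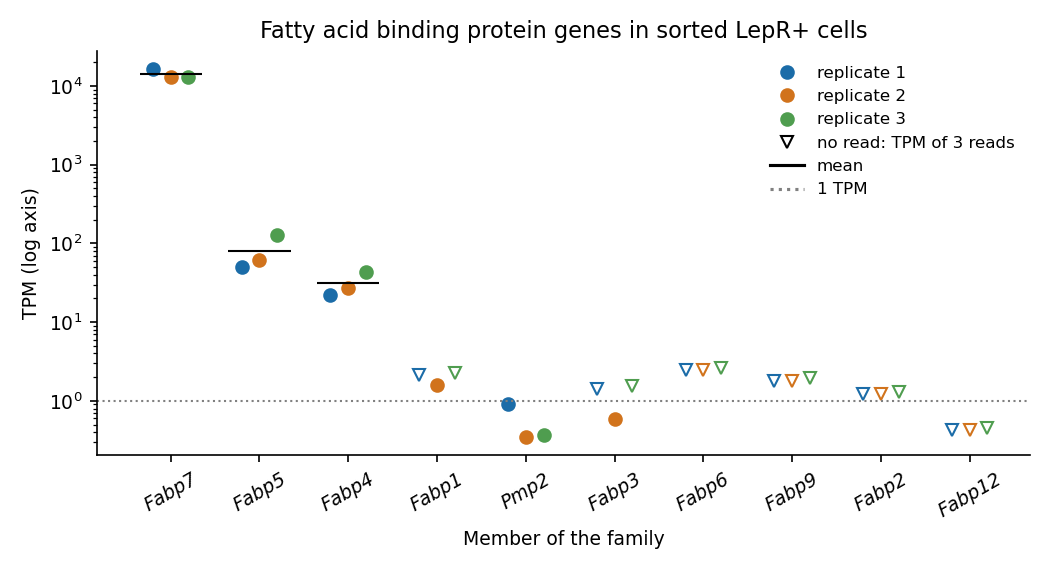
TPM of each member (vertical axis, log scale) in each library. Filled points are libraries with a read, open triangles mark the TPM that 3 reads would give where a library had none, and bars are means of the 3 highest members. Fabp7 stands at 13012 TPM or more in every library, Fabp5 and Fabp4 between 22.3 and 129 TPM, and the other 7 members had at most 3 reads in a library.

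The other 7 members together had 8 reads in the 3 libraries. Pmp2, a protein of compact myelin, had 3, 1 and 1 reads, which were 0.903, 0.347 and 0.371 TPM. Fabp1 had 2 reads and Fabp3 had 1, in replicate 2 and in no other library. Fabp2, Fabp6, Fabp9 and Fabp12 had no read in any library. For these, 3 reads would be 1.22, 1.22 and 1.30 TPM of Fabp2 in replicates 1, 2 and 3, and 2.45, 2.45 and 2.62 TPM of Fabp6. They would be 1.81, 1.81 and 1.93 TPM of Fabp9 and 0.421, 0.421 and 0.450 TPM of Fabp12. These floors, like the reads themselves, cover counting error only, since reads are PCR copies without molecular identifiers. The levels of the 7 genes could not be ordered at this depth.

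In all, 3 of the 10 members reached 1 TPM with a read in every library. Among the rows deposited, 12.4% of all genes and 26.4% of protein-coding genes did so. No read in any library was found for 4 of the 10 members, against 47.9% of all genes and 21.4% of protein-coding genes. The share of members at 1 TPM was near that of protein-coding genes, and nothing is read from it. The summed TPM of the 10 members was 16414, 13228 and 13187, a mean of 14276 ± 1851 (SD, n = 3). Fabp7 held 99.5%, 99.3% and 98.7% of that sum. Fabp5 held 0.307%, 0.460% and 0.981%, and Fabp4 0.136%, 0.206% and 0.333%. The other 9 members summed to 74.4, 91.1 and 174 TPM, highest in replicate 3.

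**Figure D3:**
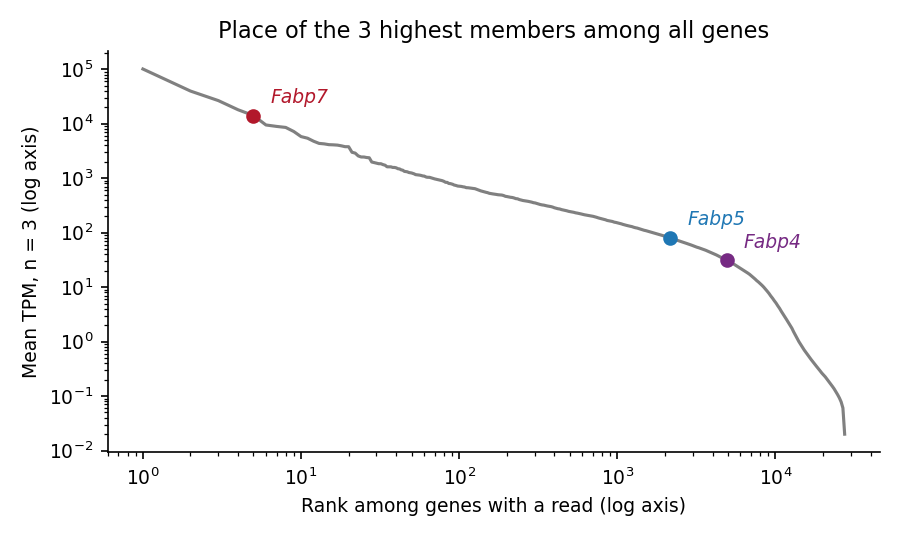
Mean TPM (vertical axis, log scale) of the 27399 genes with a read against their rank (horizontal axis, log scale), with the 3 highest members marked. Fabp7 ranks 5, Fabp5 2166 and Fabp4 4912.

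The gap between Fabp7 and the next members depends on the length each gene is given. The deposited values fit a length that joins the exons of all annotated transcripts of a gene. For Fabp4 that is 4489 bases, because the annotation holds a transcript with retained introns, whereas its main coding mRNA has 896 bases. For Fabp5 it is 3567 bases against 987, again with a retained-intron transcript. For Fabp7 it is 1250 against 804, from a second coding transcript. Dividing the reads by mRNA length instead put Fabp4 at 156 ± 56.5, Fabp5 at 289.7 ± 155 and Fabp7 at 22019 ± 2932 on the TPM scale (SD, n = 3), with the library total left as it was. Fabp7 was then 140, 92.96 and 43.3 times above Fabp5 and 227, 150 and 92.1 times above Fabp4. The order of the 3 genes was the same in every library with either length. With mRNA length, however, the ranges of Fabp4 (112 to 220) and Fabp5 (182 to 467) overlapped. How many of the reads lay in introns was not measured here, since the table gives 1 value per gene.

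**Figure D4:**
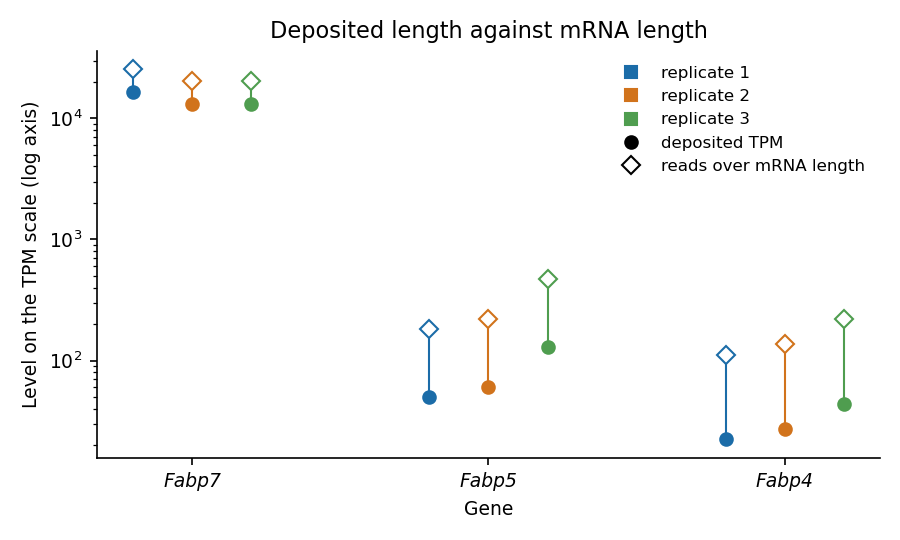
Levels of Fabp7, Fabp5 and Fabp4 in each library (vertical axis, TPM scale, log axis), as deposited (filled circles) and with the reads divided by the length of the main coding mRNA (open diamonds). The step is largest for Fabp4 and smallest for Fabp7, and the 3 genes keep their order.

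Pmp2 and Fabp9 share most of their exon bases with another annotated gene. Of the 1408 exon bases of Pmp2 (chromosome 3, 10179851 to 10183929, reverse strand), 1224 (86.9%) are also exon bases of Gm37389, a gene on the same strand that spans Pmp2 and Fabp9. Of the 649 exon bases of Fabp9, 344 (53.0%) are shared with the same gene. Gm37389 had no read in any library. Counting programs can be set to leave out a read that falls on exons of more than 1 gene, and which setting was used is not known here, so the low values of Pmp2 and Fabp9 are less certain than the others. Of the exon bases, 184 of Pmp2 and 305 of Fabp9 are shared with no other gene. Fabp3 shares 161 of its 823 exon bases with genes of the opposite strand, and the other 7 members share none.

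Near copies elsewhere in the annotation were also looked for, at 80% or more identity over 150 or more coding bases. Fabp7 had no such copy outside the family, nor had Fabp4. Fabp5 had 5, all processed pseudogenes, at 93.6% to 98.3% identity. Of these Gm6166 had 0, 4 and 5 reads, Gm14328 0, 1 and 0, and Fabp5l2, Gm13998 and Gm6100 none, against 459 to 1104 reads on Fabp5 itself. Reads of Fabp5 that match a copy equally well could be lost or misplaced, so its level is less certain than that of Fabp7. Fabp3 had 2 copies, Fabp3-ps1 at 99.2% and Gm16179 at 84.3%, with no read on either, and reads that match both Fabp3 and its near-identical copy may not have been counted.

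Genes whose levels lay nearest to a member in all 3 libraries were found by distance in log2(TPM + 1) among 10950 genes with a read in every library. For Fabp7 they were the mitochondrial rRNA gene mt-Rnr2, mt-Nd4 and Apoe, at distances of 0.80, 1.11 and 1.16, so no gene lay close. For Fabp5 they were Tanc2, Zfp809 and Slitrk2, at 0.21, 0.21 and 0.24, with 50.1 to 57.3 TPM in replicate 1, 59.6 to 70.1 in replicate 2 and 110 to 126 in replicate 3. For Fabp4 they were Tbck, Cflar and Clock, at 0.18, 0.22 and 0.27. With 3 libraries such a likeness says only that the levels were alike.

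Markers of cell types known for each member were set beside it. Of 14 genes of satellite glia and non-myelinating Schwann cells, the setting in which Fabp7 is known in ganglia, 12 reached 1 TPM in every library, and their summed level was 16797 to 19184 TPM. Apoe led at 8934 ± 772 TPM, followed by the adhesion gene Cdh19 at 4129 ± 873 and the sodium channel gene Scn7a at 1846 ± 193 (SD, n = 3). Fabp7 alone, which was left out of that list, had from 13012 to 16339 TPM. Of 10 genes of myelinating Schwann cells, where Pmp2 is known, 3 reached 1 TPM in every library. Pmp22, a myelin protein also made by other cells, had 1336 ± 76.1 TPM (SD, n = 3), and Mbp, myelin basic protein, had 49.2 ± 49.7. Mag and Prx, singled out after their values were seen as genes of mature myelin, had at most 1 and 4 reads in a library. In a bulk sample, fewer cells of a type and less RNA per cell cannot be told apart.

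Endothelial and adipocyte markers were read for Fabp4. Of 10 endothelial genes 9 reached 1 TPM in every library, with summed levels of 333, 440 and 323 TPM, led by Emcn at 173 ± 56.2, Tek at 46.6 ± 33.7 and Flt1 at 38.6 ± 14.8 TPM (SD, n = 3). Emcn alone had 237, 135 and 146 TPM of these sums. Pecam1, Cdh5, Kdr, Cldn5, Egfl7, Esam and Vwf, named after their values were seen, had from 0.709 to 45.6 TPM in a library. Pecam1 had 4.92, 40.2 and 5.12 TPM and Cdh5 1.23, 31.6 and 38.4. Of 7 adipocyte genes none reached 1 TPM in every library. Their sums were 0.581, 1.73 and 5.29 TPM, Retn and Pck1 had no read, and Plin1, a coat protein of lipid droplets, had 0, 0 and 52 reads. Cfd and Cidec, the next highest, had at most 2 and 1 reads in a library. Of 10 macrophage genes, a cell type that makes Fabp4 and Fabp5, none reached 1 TPM in every library, and their sums were 2.60, 85.2 and 102 TPM, highest in replicate 3 as were both members. Tyrobp had 0, 33 and 120 reads, Cd68 0, 196 and 0, Lyz2 1, 7 and 43, and Aif1 none. The rest of the list is given after its values were seen. Csf1r, Adgre1, C1qa, Mrc1 and Fcgr1 had at most 7 reads in a library, and Ptprc had 3, 89 and 488. Whether macrophage RNA had a part in the higher Fabp4 and Fabp5 of replicate 3 was not tested.

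Perineurial genes, the cell type named in the study's title, reached 1 TPM in every library in 6 of 12 cases, at sums of 467 to 770 TPM. The claudin gene Cldn1 led at 227.5 ± 15.9 ahead of Sfrp5 and Ptch1, and Krt19 was unread. The others are given after their values were seen. Itgb4 had 0.851, 32.1 and 1.15 TPM, Slc2a1 1.59, 34.0 and 0.51, and Wnt6 3.62, 59.6 and 1.19. Tjp1 had 38.5, 64.2 and 35.4 TPM, and Lypd2 4.8, 93.4 and 30.3. Moxd1 had 0, 385 and 289 reads, Ocln 583, 1 and 4, and Msln 1, 0 and 0. All 6 fibroblast genes reached 1 TPM in every library, at sums of 4464 to 6614 TPM, led by Dcn at 3791 ± 634 ahead of Lum and Col3a1. The rest of this list is given after its values were seen. Col1a2 had 92.7, 126 and 108 TPM, Col1a1 5.74, 18.7 and 6.96, and Pdgfra 31.25, 2.66 and 7.055. Of 9 sympathetic neuron genes 1 reached 1 TPM in every library, at sums of 33.2 to 89.1 TPM, with Npy unread. Among the highest, Tubb3 had 0, 243 and 1 reads and Hand2 12.5, 0.706 and 6.3 TPM. Th, Dbh, Stmn2, Prph and Uchl1, named after their values were seen, had at most 20 reads in a library. Of 7 genes of striated muscle, where Fabp3 is known, none reached 1 TPM in every library. Their sums were 69.2, 2.47 and 1.78 TPM, led by Myh6, Mb and Actn2. Myh6 had 67.7 TPM in replicate 1, and Ckm had no read.

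Genes that act with fatty acid binding proteins were then compared with a level of 1 TPM over the 3 libraries, using limma's moderated test on log2(TPM + 1) with adjustment over all 27399 genes with a read. Of 84 genes in 6 lists, 79 had a read. Of these 31 (39.2%) lay above 1 TPM and 6 (7.59%) below, and 42 passed neither way. The 6 genes called below had at most 4 reads in a library, so these calls lie at the limit of detection. Over all genes tested, 16.2% lay above and 13.7% below. Those include genes that code for no protein. At 1 TPM in every library were 26.4% of protein-coding genes but 12.4% of all genes. The lists were also chosen with earlier results of these data known. Nothing is therefore read from how the lists compare with all genes. Without replicate 1 or without replicate 2, no gene of any list and none of the whole table passed either way, although 26 and 30 of the list genes were above at an unadjusted p under 0.05 (limma). Without replicate 3, 17 list genes passed above. The calls below 1 TPM also ended at a level of 0.5 TPM and without mitochondrially encoded genes. Leaving out genes under a mean of 0.5 TPM removed all 6 list genes called below, so that setting cannot test those calls.

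**Figure D5:**
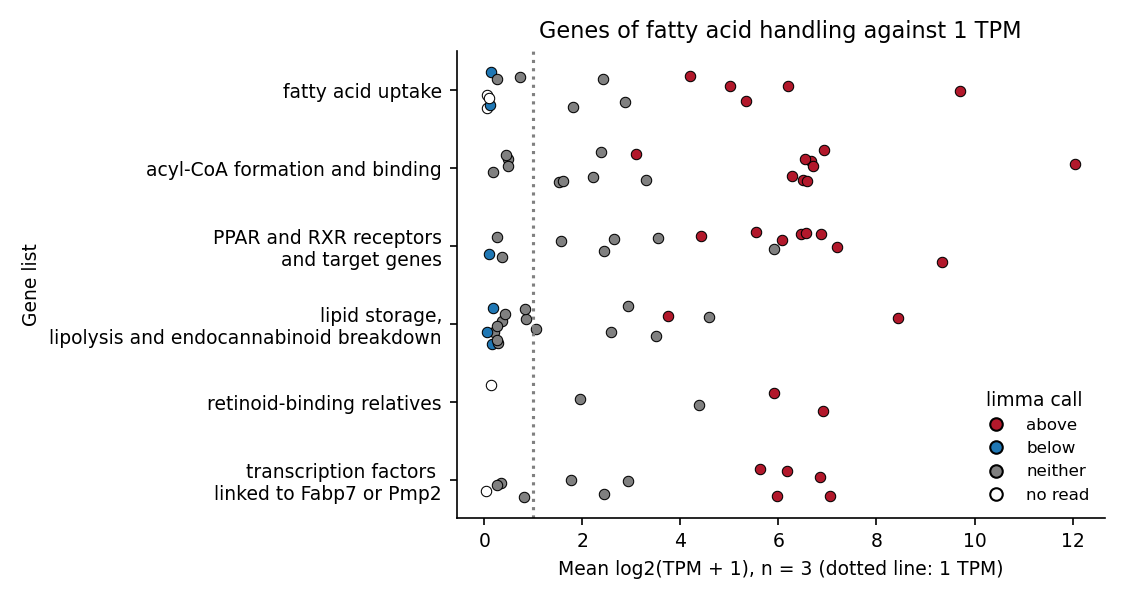
Mean log2(TPM + 1) over the 3 libraries (horizontal axis) of each gene in 6 lists of fatty acid handling (vertical axis), coloured by limma's call against 1 TPM, the dotted line. Calls above are 5 of 12, 9 of 18, 8 of 16, 2 of 18, 2 of 4 and 5 of 11 genes with a read, from the top list down.

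Uptake of fatty acids comes before their binding. Of 15 genes, 12 were read: 5 were above 1 TPM, 2 were below it, and 5 passed in neither direction. Their median difference from 1 TPM was 1.65 on the log2(TPM + 1) scale, where the median of all genes tested was -0.11. Cav1, the main protein of caveolae, had 878, 911 and 723 TPM, well above 1 TPM in each library (limma, adjusted p = 0.00336). Cd36, the fatty acid translocase of capillaries, adipocytes and macrophages, had 76.6, 33.6 and 147 TPM, lowest in replicate 2 (limma, adjusted p = 0.0156). The lysosomal lipase Lipa had 62.8, 8.06 and 116 TPM, and the fatty acid transport protein Slc27a1 had 35.2, 99.8 and 8.25 (limma, adjusted p = 0.0495 and 0.0488). Both of these calls were lost at a level of 0.5 TPM (0.0664 and 0.0615) and without mitochondrially encoded genes (0.0661 and 0.0605). Slc27a4, a related transporter, was high in 1 library only, at 1.53, 0.111 and 54.8 TPM (limma, adjusted p = 0.467).

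Inside the cell, fatty acids are joined to coenzyme A and the products are held by acyl-CoA binding proteins. Of 18 such genes, 9 lay above 1 TPM, none was called below by limma (2 before adjustment at 0.05, 1 when a mean-variance trend was fitted), and 9 passed neither way, with a median difference of 2.19. Dbi, the acyl-CoA binding protein, had 4001, 5687 and 3381 TPM (limma, adjusted p = 0.00336), highest of the 84 list genes. Fabp7 was above Dbi in every library. Scp2, a carrier of sterols and lipids, had 47.1, 199 and 190 TPM, and Acsl3, an acyl-CoA synthetase of the endoplasmic reticulum and lipid droplets, 147, 41.0 and 167. Acbd5, an acyl-CoA binding protein of peroxisomes, had 55.1, 64.1 and 225 TPM (limma, adjusted p from 0.0143 to 0.0149 for these 3 genes). Acbd3 and Acot1 varied most, at 2.96, 57.5 and 3.04 TPM and at 198, 56 and 0 reads.

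Nuclear receptors of the PPAR family receive fatty acids from their binding proteins and pair with RXR receptors. Of 16 receptors and target genes, 8 lay above 1 TPM, 1 below and 7 neither way, with a median difference of 3.98. Ech1, an enzyme of fatty acid oxidation, had 172, 159 and 114 TPM, close among libraries (limma, adjusted p = 0.00341). Pdk4, a kinase that slows glucose oxidation, had 255, 56.9 and 107 TPM (limma, adjusted p = 0.0126). Cpt1a, the carnitine transferase that admits fatty acids to mitochondria, had 186, 231 and 4.01 TPM and missed the threshold (limma, adjusted p = 0.0813). It passed with a pseudocount of 0.1, with genes under a mean of 0.5 TPM left out, with a mean-variance trend and without replicate 3 (0.033, 0.0304, 2.05e-10 and 0.0358). The receptor Rxra had 116, 0.948 and 5.83 TPM (limma, adjusted p = 0.243). The other RXR genes are named after their values were seen. Rxrg had 115, 20.5 and 268 TPM (limma, adjusted p = 0.0482), and Rxrb had 0, 6 and 2 reads. The 3 PPAR genes, singled out for their role after their values were seen, had at most 73 reads in a library. Ppara had 0, 18 and 73, Ppard 0, 2 and 0, and Pparg 1, 3 and 0.

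The next list held genes of lipid storage and breakdown. Of 18 genes, 2 lay above 1 TPM, 3 below and 13 neither way, with a median difference of -0.37. G0s2, an inhibitor of the main triglyceride lipase, had 278, 264 and 571 TPM, highest in replicate 3 as were Fabp4 and Fabp5 (limma, adjusted p = 0.00392). Plin3, a coat protein of lipid droplets, had 140, 8.91 and 8.95 TPM (limma, adjusted p = 0.0783), and it passed with a pseudocount of 0.1, with genes under a mean of 0.5 TPM left out and with a mean-variance trend (0.0341, 0.0407 and 0.000985). Napepld, which makes fatty acid ethanolamides that FABPs can carry, had 72.2, 16.5 and 0.132 TPM, and Pnpla2, the main triglyceride lipase, 42.0, 4.43 and 0.865. Both were highest in replicate 1 (limma, adjusted p = 0.251 and 0.246).

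Cellular retinoid-binding proteins are the closest relatives of the family by fold. Of 5 genes, 2 lay above 1 TPM, 2 passed neither way and Rbp2 had no read. None was called below (limma, 0 also before adjustment at 0.05 and 0 when a mean-variance trend was fitted). Rbp7, a retinol carrier of adipocytes and endothelium, had 92.3, 309 and 59.5 TPM, highest in replicate 2 (limma, adjusted p = 0.0158). Crabp1 and Crabp2, carriers of retinoic acid, were uneven, at 48.4, 108 and 0.651 TPM and at 130, 0 and 1 reads. Crabp1 missed the threshold (limma, adjusted p = 0.171) and passed with a mean-variance trend (0.00319).

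Transcription factors linked to Fabp7 or Pmp2 in earlier work on glia were read as the last list. Of 12, 5 lay above 1 TPM, 6 passed neither way and Pou3f1 had no read. None was called below by limma, with 2 before adjustment at 0.05 and 2 when a mean-variance trend was fitted. Nfib and Nfia, nuclear factor I genes of astrocyte and glial development, had 114.5, 162 and 123 and 156, 131 and 72.7 TPM (limma, adjusted p = 0.00336 and 0.0049). Sox10, the glial factor of the neural crest, had 26.7, 165 and 51.6 TPM and Hes1, a Notch target, 50.8, 64.9 and 109 (limma, adjusted p = 0.0273 and 0.00577). Rbpj, the DNA-binding partner of Notch, had 14.5, 0.866 and 14.4 TPM (limma, adjusted p = 0.162). Egr2, the factor of myelinating Schwann cells, named after its values were seen, had 0, 0 and 5 reads. Pou3f2, likewise named after its values were seen, had 121, 31.0 and 30.2 TPM (limma, adjusted p = 0.0233), whereas Pou3f1 was unread.

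The promoter sequence of Fabp7 is shown because it is the member on which the results turn. The stretch covers the 208 bases before the annotated start of the gene, chr10:57784673-57784880 on the forward strand, from RefSeq (GRCm38.p6), with capitals for the motif matches given next.
Fabp7 promoter: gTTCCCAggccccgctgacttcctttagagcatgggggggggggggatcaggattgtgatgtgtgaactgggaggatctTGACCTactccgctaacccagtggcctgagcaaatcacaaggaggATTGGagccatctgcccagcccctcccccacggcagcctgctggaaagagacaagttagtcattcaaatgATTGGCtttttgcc

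Motifs were searched on both strands. The nuclear factor I half-site TTGGC occurred once, 13 bases before the start, overlapping a match to CCAAT on the reverse strand that begins 14 bases before it. A second CCAAT match lay 84 bases before the start. The RBPJ core TGGGAA occurred once, 207 bases before it, and the nuclear receptor half-site AGGTCA once, 129 bases before it, both on the reverse strand. The TATA box TATAAA, the SOX core ACAAAG, the octamer ATGCAAAT and the PPAR response element (the receptor half-site repeated with 1 base between) had no match. Over the same stretch of 32851 promoters, 36.2% held the nuclear factor I half-site, 29.6% the CCAAT box, 18.5% the RBPJ core and 11.9% the nuclear receptor half-site. The TATA box was in 9.47%, the SOX core in 14.1%, the octamer in 1.38% and the PPAR response element in 0.0304%. A match is a match of letters and shows no binding.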

How the data were processed

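The authors deposited log2 TPM per gene for the 3 libraries. Alignment with STAR and counting with featureCounts on mm10 (GRCm38) are named per the submitters' processing notes. Versions, annotation, strand and overlap settings: not given in the sources used. The values fit whole reads plus 0.25 read, divided by exon length: all 49035 genes with the same versioned ID in GENCODE M21 came out whole within 0.001 of a read (slightly wider for the highest counts), 49492 in all fitted an M21 length, and 3058 with the smallest length solved from the values. Means and tests use the deposited values, reads serve to tell which genes were read.

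Mean log2(TPM + 1) was tested against 1 TPM with limma 3.58.1 (R 4.3.3, two-sided, Benjamini-Hochberg over 27399 genes with a read, threshold 0.05). The test was tried on simulated data with the spreads of genes of at least 5 TPM. That simulation does not cover genes near the floor, so it cannot speak to the calls below 1 TPM. Coding sequences were aligned globally with biopython 1.88 and compared with all M21 transcripts by blastn 2.17.0. The family members and the gene lists were chosen with earlier results of these data known. Named were all members, the 4 highest genes of each list and the 2 with the largest SD among those of at least 5 TPM, the 3 highest and the unread markers of each list, and the 3 genes nearest to a member of at least 5 TPM. Genes named outside this rule are marked as such, and 4 genes that the rule names are not reported here.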

Additional observations from a re-analysis of the deposited data

How the results depend on the processing

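The summed TPM of the family was 17938 without mitochondrially encoded genes and 22466 with the main coding transcript's length, a choice made after seeing the data, and Fabp7 held 97.9% of it with that length. Leaving out 1 replicate gave sums of 13207 to 14821 and shares of 98.99% to 99.43%. Counts above 1 TPM ranged from 0 to 2436 over all genes and from 0 to 17 over all lists when 1 replicate was left out. By list they ranged from 0 to 1 for uptake, 0 to 6 for acyl-CoA genes, 0 to 5 for PPAR genes, 0 to 1 for storage, 0 to 1 for retinoid carriers and 0 to 3 for transcription factors. Counts below ranged from 0 to 4895 over all genes, 0 to 8 over all lists, 0 to 2 for acyl-CoA genes, 0 to 5 for storage and 0 to 1 for transcription factors, and were 0 for uptake and PPAR genes. These counts have 1 residual degree of freedom whichever replicate was left out, fewer than with all 3 libraries. Why they differ between the replicates left out was not tested. At a level of 0.5 TPM, without mitochondrially encoded genes, and at a mean of at least 0.5 TPM, counts below were 0 over all genes (825, 6234 and 0 at an unadjusted p under 0.05 in limma), 0 over all lists, and 0 for uptake, PPAR and storage genes. The last of these settings leaves out every list gene called below, so it cannot test those calls. The first 2 settings took the uptake count above from 5 to 3. A mean-variance trend raised counts below to 9650 over all genes, 18 over all lists, 9 for storage, 3 for PPAR, 1 for acyl-CoA and 2 for transcription factor genes. The cause was not tested. Leaving out 1 replicate gave log2 differences from 1 TPM of -0.25 to 2.57 for Slc27a4, negative without replicate 3, and of -0.71 to 1.89 for Crabp2, negative without replicate 1. No paired analysis was possible because the series has 1 group.

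Depth limits the 7 lowest members. For Fabp6, the shortest of them, 3 reads are 2.45 to 2.62 TPM.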
